A study of Mus musculus with 6 samples.

Results

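The miR-23, miR-27 and miR-24 family consists of microRNAs (miRNAs, short RNAs that guide repression of matching mRNAs) made from paired gene clusters. The members described here are mmu-miR-23a-3p, mmu-miR-23b-3p, mmu-miR-27a-3p, mmu-miR-27b-3p and mmu-miR-24-3p (the prefix, for mouse, is left out below), chosen by name from the deposited miRNA table, and all 5 were found among its 1277 miRNAs. Small RNA of mouse urinary bladder cells had been sequenced in 3 Control and 3 CYP libraries. The CYP mice received cyclophosphamide, a DNA-alkylating drug that is toxic to the bladder lining through a metabolite in urine. It was injected into the peritoneum 4 times, on days 2, 4, 6 and 8, at a dose of 80 mg/kg, and the labels place the CYP cells 8 days after induction. The Control mice were given saline and are also called naive in the labels, and an age of 8 weeks is stated for both groups. No strain, sex, allele or pooling is stated. Separate animals are not stated for the replicates, and the description field gives the 3 libraries of each group the same sample number, and what the p-values below measure is therefore the spread of these libraries, which may be technical.

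In mammals each cluster is copied into 1 primary transcript, from which the enzyme Drosha cuts out hairpins, and Dicer then cuts each hairpin into a duplex of a 5p and a 3p strand. One strand, here the 3p, is usually kept in Argonaute as the guide, and the other is mostly degraded. The family is known from endothelial cells, where miR-23 and miR-27 promote vessel sprouting, and from other cells, where miR-27 restrains the adipocyte regulator PPARG and miR-23 restrains glutaminase in human cells. miRNAs recognise their targets mainly through the seed, bases 2 to 8 from the 5′ end.

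The mature members are shown because their seeds and their single-base differences decide how far the family can be told apart. RefSeq (GRCm38.p6) gave a mature sequence for 4 of the 5 members, miR-23b-3p being the other one. Seeds are in capitals, and sequences run 5′ to 3′:
miR-23a-3p: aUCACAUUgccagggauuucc
miR-27a-3p: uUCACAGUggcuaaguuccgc
miR-27b-3p: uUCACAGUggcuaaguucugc
miR-24-3p: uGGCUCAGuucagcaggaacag
The miR-27 pair shared its seed and differed over 21 bases by C19U alone (the base of miR-27a-3p first, counted from the 5′ end, then that of miR-27b-3p). miR-23a-3p and miR-27a-3p had the same bases at positions 2 to 6, the stretch UCACA, and then diverged within the seed. miR-24-3p had an unrelated seed. How the authors' counting divided reads between near-identical copies is not stated in the sources, so the split between miR-27a-3p and miR-27b-3p, and between miR-23a-3p and miR-23b-3p, is uncertain, and the sum of each pair is given beside its members.

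In the mm10 annotation the first cluster lies on the plus strand of chromosome 8 and spans 404 bases, from Mir23a (chr8:84208518-84208592) through Mir27a (chr8:84208672-84208758) to Mir24-2 (chr8:84208815-84208921). Mir23a and Mir27a overlap no other annotated gene, while Mir24-2 overlaps an exon of the long noncoding RNA Gm26532. The second cluster spans 792 bases on the plus strand of chromosome 13, with Mir23b (chr13:63300484-63300557) in an intron of 2010111I01Rik (now Aopep, an aminopeptidase gene). Mir27b (chr13:63300712-63300784) and Mir24-1 (chr13:63301208-63301275) lie in exons of transcripts of that gene that are not annotated as protein-coding. All 3 also lie opposite an intron of Fancc. Mir24-1 and Mir24-2 yield the same miR-24-3p, so its reads cannot be assigned to either cluster.

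The libraries held between 14900120 and 19442420 reads, and the miRNA table held between 9110719 and 12180739 unique molecular identifiers (UMIs, random barcodes that let copies of a molecule be counted once) per library. Levels are given in CPM, UMIs per 1000000 miRNA UMIs after edgeR's trimmed-mean (TMM) scaling. The TMM factors ran from 0.905 in Control replicate 1 to 1.092 in CYP replicate 3, so the order of libraries can depend on this scaling. The 4 muscle markers (miR-143-3p, miR-145a-5p, miR-1a-3p, miR-133a-3p) summed to between 295868 and 345558 CPM in Control and between 265447 and 297526 CPM in CYP, with 0 of 4 called and a median log2 fold change of −0.21. The 6 epithelial markers (the miR-200 family and miR-205-5p) summed to between 40115 and 42216 CPM in Control and between 41951 and 45626 CPM in CYP. Of the other lists, the 3 endothelial miRNAs of miR-126 summed to between 25365 and 28408 CPM in Control and between 23875 and 26115 CPM in CYP. The 1 of 3 called lower was the scarce miR-126b-5p (mean 84.55 CPM in Control, 66.06 CPM in CYP). The abundant miR-126a-3p and miR-126a-5p were not called (edgeR adjusted p = 0.451 and 0.162). The 4 myeloid markers summed to between 2845 and 3179 CPM in Control and between 2578 and 3262 CPM in CYP. None of these 4 was called, and their estimates went both ways. The log2 fold changes were 0.13 (miR-223-3p), 0.43 (miR-223-5p), −0.31 (miR-142a-3p) and −0.29 (miR-142a-5p). The 2 fibroblast markers in the table (of 3 listed) summed to between 2864 and 3165 CPM in Control and between 2691 and 2856 CPM in CYP, ranges that did not overlap. Neither was called, and their log2 fold changes were −0.13 (miR-199a-5p) and 0.03 (miR-214-3p). Of all tested miRNAs taken singly, 13.9% had groups that did not overlap with CYP lower. The 3 erythroid markers summed to between 47.0 and 92.2 CPM in CYP, against between 120.5 and 154.3 CPM in Control, with 2 of 3 called lower. The lymphoid miR-150-5p fell to between 321.8 and 326.0 CPM in CYP, from between 584.2 and 857.2 CPM in Control. One epithelial marker, miR-429-3p, was called higher. No listed marker was at 0. Over all tested miRNAs, 6.67% were called higher in CYP and 5.65% lower. These are bulk libraries, so a change in the number of cells of a type and a change in the marker miRNA per cell cannot be told apart.

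All 5 members were abundant in the bladder cells, and the order of their levels was the same in the means of both groups. miR-27b-3p ranked 18th of the 1277 miRNAs by mean level, miR-24-3p 21st, miR-23a-3p 23rd, miR-23b-3p 27th and miR-27a-3p 52nd. Together they made up 45796 ± 3476 CPM in Control against 44274 ± 1087 CPM in CYP (SD over 3 libraries). The deposited table held between 1.03 and 1.05 reads per UMI for each of them.

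miR-27b-3p, the most abundant member, stood at 14738, 13790 and 12489 CPM in Control replicates 1, 2 and 3 and at 14053, 14310 and 12392 CPM in CYP replicates 1, 2 and 3. The groups overlapped across nearly their whole range, with replicate 3 the lowest in each. miR-24-3p, the product of both clusters, stood at 13820, 12164 and 12204 CPM in Control and at 12220, 11761 and 13342 CPM in CYP. The ranges of the pair overlapped in both groups. Within a library miR-27b-3p had the higher value in each one but CYP replicate 3.

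miR-23a-3p stood at 10553, 8897 and 9219 CPM in Control and at 8657, 8158 and 9575 CPM in CYP. After TMM scaling Control replicate 1 was the highest and CYP replicate 2 the lowest, and CYP replicate 3 lay within the Control range. The rank of Control replicate 1 rests on that scaling, as its TMM factor was the lowest (0.905). miR-23b-3p, its copy from chromosome 13, stood at 7327, 6256 and 6546 CPM in Control and at 6245, 6012 and 6708 CPM in CYP. After TMM scaling Control replicate 1 was again the highest and CYP replicate 2 the lowest, with the same limit. Every value of miR-23b-3p lay below every value of miR-23a-3p. miR-27a-3p, the least abundant member, stood at 3357, 2980 and 3048 CPM in Control and at 3069, 2962 and 3358 CPM in CYP, with overlapping groups and no value within reach of another member.

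**Figure D1:**
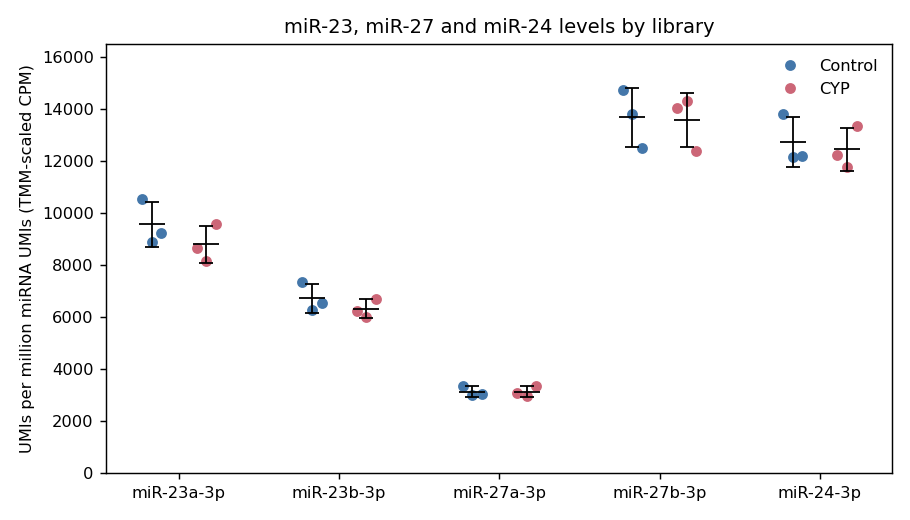
Level of each member in UMIs per 1000000 miRNA UMIs (TMM-scaled CPM, vertical axis from 0) in the 3 Control and 3 CYP libraries; points are libraries, replicates 1 to 3 from left to right, and bars are the mean ± SD. Control and CYP points overlap for each of the 5 members, while miR-27a-3p lies near 3128 CPM and miR-27b-3p near 13672 CPM.

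None of the 5 members differed between CYP and Control by edgeR's quasi-likelihood test across 885 tested miRNAs, of which 109 (12.3%) were called (adjusted p below 0.05). By direction, 6.67% of the tested miRNAs were called as higher in CYP and 5.65% as lower. None had an unadjusted p below 0.05 either, and DESeq2 called 0 of them. The log2 fold change of CYP over Control was −0.12 ± 0.09 (SE) for miR-23a-3p (edgeR adjusted p = 0.491) and −0.09 ± 0.08 for miR-23b-3p (edgeR adjusted p = 0.611). It was −0.03 ± 0.08 for miR-24-3p (edgeR adjusted p = 0.868), −0.01 ± 0.09 for miR-27b-3p (edgeR adjusted p = 0.983) and 0.00 ± 0.08 for miR-27a-3p (edgeR adjusted p = 0.9995). The median over the members was −0.03, against 0.02 over all tested miRNAs. These signs carried no call, and with library totals in place of TMM, which moved the median over all miRNAs to 0.14, no member had a value below 0.

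A missed threshold does not show equal levels, but the intervals bound the change between these libraries under TMM scaling. They rest on the spread of the libraries, which may be technical. The 95% interval ran from 1.25-fold lower to 1.06-fold higher in CYP for miR-23a-3p, and from 1.21-fold lower to 1.07-fold higher for miR-23b-3p. It ran from 1.16-fold lower to 1.11-fold higher for miR-24-3p, from 1.15-fold lower to 1.14-fold higher for miR-27b-3p and from 1.13-fold lower to 1.13-fold higher for miR-27a-3p. The SE of a member was 0.08 in the median, against 0.22 over all tested miRNAs. With each pair of copies added into 1 count, the log2 fold change was −0.11 ± 0.10 for miR-23 (edgeR adjusted p = 0.559) and −0.01 ± 0.09 for miR-27 (edgeR adjusted p = 0.976). In the authors' deposited table the fold changes of CYP over Control were 0.89 for miR-23a-3p, 0.91 for miR-23b-3p, 0.94 for miR-24-3p and 0.96 for both miR-27 copies, with unadjusted p-values from 0.0687 to 0.54.

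Ratios between members within a library need no scaling between libraries. The ratio of miR-23a-3p to miR-23b-3p was 1.44, 1.42 and 1.41 in Control and 1.39, 1.36 and 1.43 in CYP. The groups overlapped (exact two-sided permutation p = 0.3, where 3 against 3 libraries cannot go below 0.1). miR-27b-3p outnumbered miR-27a-3p by 4.39, 4.63 and 4.10 times in Control and by 4.58, 4.83 and 3.69 times in CYP (exact permutation p = 0.9), with CYP replicate 3 the lowest of all libraries.

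The UMI count of miR-27a-3p was 0.318, 0.335 and 0.331 of that of miR-23a-3p in Control and 0.355, 0.363 and 0.351 in CYP. The groups did not overlap, the CYP mean being higher by 0.12 on the log2 scale (1.09-fold). The exact two-sided permutation p was 0.1, the smallest that 3 against 3 libraries can give, and 0.2 after Benjamini-Hochberg adjustment over the 8 ratios tested, so this shift did not pass. The matching ratio on chromosome 13, miR-27b-3p to miR-23b-3p, was 2.01, 2.20 and 1.91 in Control and 2.25, 2.38 and 1.85 in CYP, with overlapping groups (exact permutation p = 0.7). UMIs count captured molecules, so a ratio between different miRNAs describes the libraries and is compared only between groups.

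**Figure D2:**
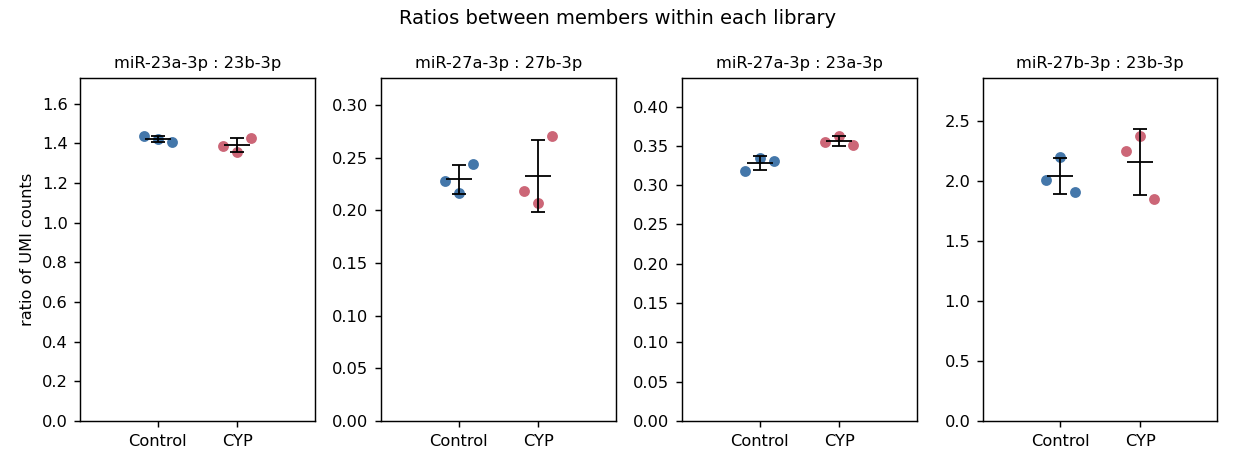
Ratio of UMI counts between members within each library (vertical axes from 0), for the copies of miR-23, the copies of miR-27 and the 2 products of each cluster; points are libraries, replicates 1 to 3 from left to right, and bars are the mean ± SD of 3 libraries. The groups are apart for miR-27a-3p to miR-23a-3p (0.328 ± 0.00878 in Control, 0.356 ± 0.00635 in CYP) and overlap in the other panels.

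Across the 6 libraries the pattern of miR-27b-3p was the farthest from those of the other members. After centring each member's log2 CPM on its own mean, the root mean square difference was 0.0205 between miR-24-3p and miR-27a-3p and 0.0289 between miR-23a-3p and miR-23b-3p. It reached 0.0491 between miR-23a-3p and miR-24-3p and 0.0655 between miR-23a-3p and miR-27a-3p. The 3 nearest other miRNAs of miR-23a-3p lay at 0.0340, 0.0578 and 0.0601. miR-27a-3p was thus farther from miR-23a-3p than all of these, and miR-24-3p farther than only the nearest. miR-27b-3p differed from the other members by between 0.127 and 0.154. miR-27b-3p was lowest in CYP replicate 3 (−0.13 from its mean), where miR-27a-3p, miR-24-3p, miR-23a-3p and miR-23b-3p lay between 0.05 and 0.10 above theirs. Among 165 other miRNAs with a mean of at least 100 CPM, the pattern nearest to both miR-23 copies was that of let-7d-5p (0.0340 from miR-23a-3p and 0.0231 from miR-23b-3p). The nearest to miR-27a-3p was miR-872-5p (0.0315), the nearest to miR-27b-3p was miR-191-5p (0.0305), and the nearest to miR-24-3p was miR-497a-5p (0.0477). The next in order were miR-365-3p and miR-497a-5p for miR-23a-3p, miR-224-5p and miR-497a-5p for miR-23b-3p, miR-130a-3p and miR-186-5p for miR-27a-3p, miR-361-3p and miR-196a-5p for miR-27b-3p, and miR-872-5p and let-7d-5p for miR-24-3p. None of these neighbours was called between CYP and Control, and their log2 fold changes lay between −0.19 for miR-365-3p and 0.06 for miR-130a-3p. These distances are descriptions over 6 libraries that share depth and scaling.

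The other strands of the same hairpins were scarce. These 5p strands are shown because 1 of them was called:
miR-23b-5p: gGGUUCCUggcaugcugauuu
miR-27a-5p: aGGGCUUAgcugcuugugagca
miR-27b-5p: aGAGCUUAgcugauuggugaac
The table held 5 other strands of the members' hairpins, of which 4 passed the filter on low counts, and 2 products of the Mir3074 hairpins on the opposite strand, which both passed. miR-27a-5p was called higher in CYP, 1 of the 4 strands, and neither miR-3074 product was called, against 6.67% of all tested miRNAs called in that direction.

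miR-27a-5p, the other strand of the miR-27a duplex, stood at 22.2, 15.7 and 19.3 CPM in Control (222, 140 and 236 UMIs) and at 28.1, 28.5 and 25.1 CPM in CYP (329, 298 and 258 UMIs). The groups did not overlap, CYP being higher, which held for 16.3% of all tested miRNAs. The mean rose from 19.1 ± 3.27 to 27.2 ± 1.86 CPM (SD, n = 3 each), a log2 fold change of 0.51 ± 0.14 (edgeR adjusted p = 0.0418). In 7 of 16 alternatives it was no longer called, including upper-quartile factors (0.40) and leaving out Control replicate 2 (0.42), Control replicate 3 (0.51), CYP replicate 1 (0.48) or CYP replicate 2 (0.51), with adjusted p from 0.0109 to 0.171 over the edgeR and DESeq2 alternatives. In the authors' deposited table its fold change was 1.32, with an unadjusted p of 0.06.

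miR-23b-5p and miR-27b-5p, from the chromosome 13 cluster, gave estimates of like size that missed the threshold. miR-23b-5p stood at 7.21, 7.52 and 6.78 CPM in Control and at 12.7, 8.99 and 9.54 CPM in CYP, a log2 fold change of 0.54 ± 0.17 (edgeR adjusted p = 0.0620). CYP replicate 1 was well above the rest, and without it the log2 fold change was 0.36. miR-27b-5p stood at 7.91, 5.84 and 6.54 CPM in Control and at 9.84, 9.56 and 9.25 CPM in CYP, a log2 fold change of 0.50 ± 0.15 (edgeR adjusted p = 0.0647). The groups did not overlap for either strand, which held in the same direction for 16.3% of all tested miRNAs. Both passed with library totals (edgeR adjusted p = 0.0382 and 0.0259) and with the replicate block, where edgeR's adjusted p was 0.0345 and 0.0427. They did not pass with upper-quartile factors (edgeR adjusted p = 0.155 for both) or with DESeq2 (adjusted p = 0.153 and 0.154), and over the 15 alternatives run for each the adjusted p ranged from 0.0273 to 0.299 for miR-23b-5p and from 0.0259 to 0.218 for miR-27b-5p. The authors' deposited table gave fold changes of 1.3 (unadjusted p = 0.176) for miR-23b-5p and 1.27 (unadjusted p = 0.211) for miR-27b-5p.

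miR-24-2-5p, the strand opposite miR-24-3p in the chromosome 8 hairpin, had only 10, 7 and 13 UMIs in Control and 13, 16 and 15 in CYP, and its log2 fold change of 0.51 ± 0.46 was not called (edgeR adjusted p = 0.581). miR-23a-5p was nearly absent, with 6, 0 and 0 UMIs in Control and 13, 11 and 0 in CYP, and did not pass the filter. miR-3074-5p, annotated on the strand opposite both miR-24 hairpins, stood at 152, 134 and 128 CPM in Control and at 144, 136 and 154 CPM in CYP and was not called (log2 fold change 0.07 ± 0.10, edgeR adjusted p = 0.767). miR-3074-1-3p had between 6 and 21 UMIs per library (log2 fold change 0.01 ± 0.44, edgeR adjusted p = 0.9995). Whether the authors' counting used strand is not stated in the sources, so the values of miR-3074 and miR-24 are uncertain where they overlap.

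**Figure D3:**
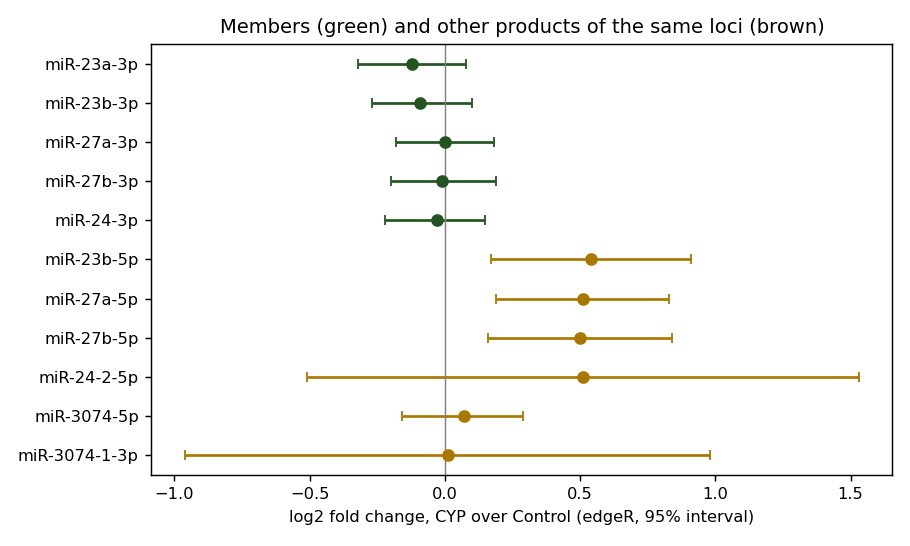
Log2 fold change of CYP over Control by edgeR (horizontal axis) with its 95% interval, for the 5 members (green) and the 6 other tested products of the same loci (brown), 4 from the members' hairpins and 2 from the Mir3074 hairpins on the opposite strand. The members lie between −0.12 and 0.00 with intervals that include 0, and miR-23b-5p, miR-27a-5p and miR-27b-5p lie between 0.50 and 0.54.

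Set against its partner within the same library, the 5p strands of miR-27a, miR-23b and miR-27b had higher ratios in the CYP libraries. For every 1000 UMIs of miR-27a-3p there were 6.63, 5.27 and 6.33 UMIs of miR-27a-5p in Control and 9.17, 9.62 and 7.48 in CYP. For every 1000 of miR-23b-3p there were 0.984, 1.202 and 1.04 of miR-23b-5p in Control and 2.03, 1.495 and 1.42 in CYP. For every 1000 of miR-27b-3p there were 0.537, 0.423 and 0.523 of miR-27b-5p in Control and 0.700, 0.668 and 0.746 in CYP. In all 3 hairpins every CYP library lay above every Control library. This held for 17.6% of the 227 hairpins with both strands tested under a shared name.

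The mean log2 ratio of 5p to 3p was higher in CYP by 0.52 for miR-27a, 0.60 for miR-23b and 0.51 for miR-27b. Each exact two-sided permutation p was 0.1, the smallest the design can give, and 0.2 after adjustment over the 8 ratios, so none passed. The ratio of miR-23a rested on 0 UMIs of the 5p strand in 3 libraries and its groups overlapped (exact permutation p = 0.3). Direction was kept in each of the 9 alternatives for the hairpins of miR-27a, miR-23b and miR-27b. With groups that do not overlap, leaving out 1 library or using the replicate block could not have turned it, so those runs add no support.

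The same ratio, less to more abundant strand, was then computed for 227 hairpins, a comparison added after the values were seen. These had both strands tested under a shared name, which leaves out hairpins whose strands are named apart, those of miR-24 among them. The groups of this ratio did not overlap with CYP lower for 8.81% of those hairpins, beside the 17.6% with CYP higher. The median change was 0.06 over the 227 hairpins and 0.52 over miR-23b, miR-27a and miR-27b. In 35 of the 227 hairpins (15.4%) the ratio rose by at least 0.51. Of the less abundant strands themselves, edgeR called 7.93% higher and 5.29% lower in CYP. The whole libraries differed in related measures: reads assigned to hairpins made up 463, 602 and 626 per 1000000 miRNA reads in Control and 939, 948 and 903 in CYP, and reads too short to be counted made up 9.96 ± 2.79% in Control against 14.1 ± 1.43% in CYP (SD over 3 libraries). Their part in the result was not tested.

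**Figure D4:**
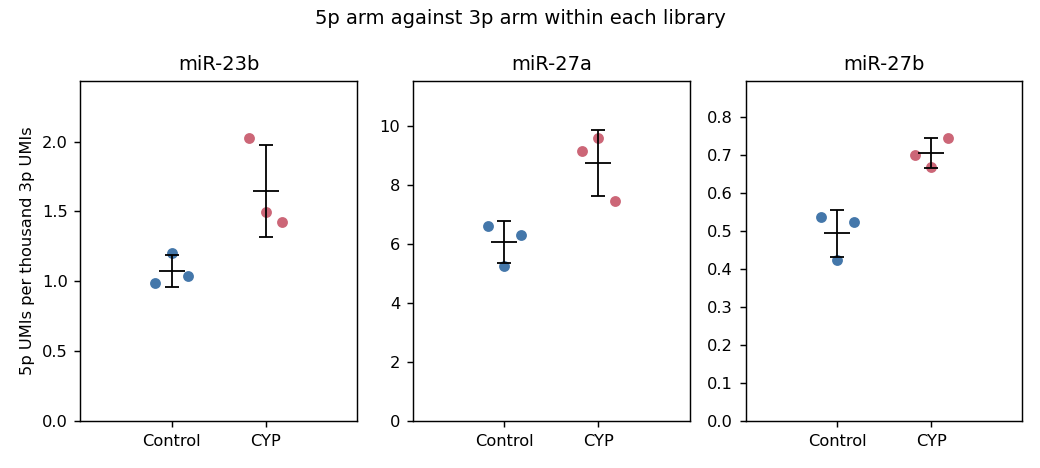
UMIs of the 5p strand per 1000 UMIs of the 3p strand of miR-23b, miR-27a and miR-27b in each library (vertical axes from 0); points are libraries, replicates 1 to 3 from left to right, and bars are the mean ± SD. Every CYP point lies above every Control point, with means of 6.08 and 8.75 for miR-27a.

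**Figure D5:**
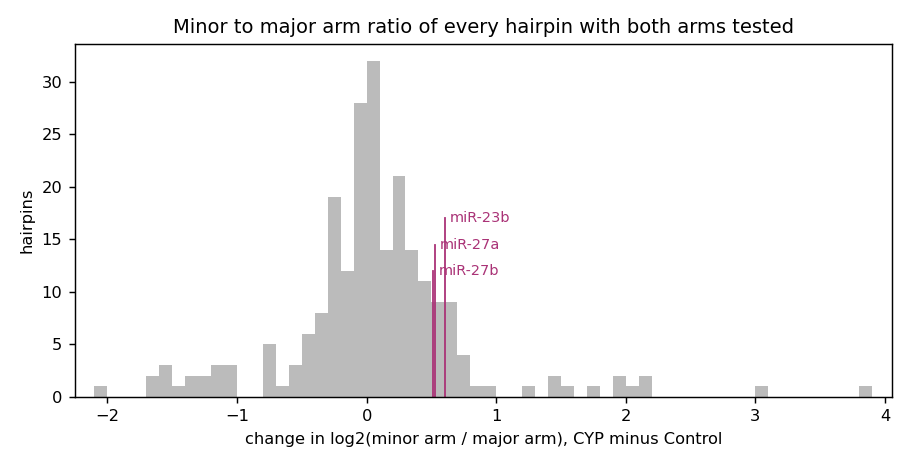
Number of hairpins (vertical axis) by their change in the log2 ratio of the less to the more abundant strand, CYP minus Control (horizontal axis), for the 227 hairpins with both strands tested under a shared name. miR-23b, miR-27a and miR-27b, marked by lines, lie at 0.60, 0.52 and 0.51, right of the median of 0.06, and 35 of the 227 hairpins lie at or beyond 0.51.

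The deposited list of sequences that matched no known class held 6 sequences from these clusters, of 19 to 23 bases each. Those from the loops are shown within their RefSeq hairpins, with the sequenced piece in capitals, because each fills the space between the 5p and 3p strands exactly or almost so:
Mir27a: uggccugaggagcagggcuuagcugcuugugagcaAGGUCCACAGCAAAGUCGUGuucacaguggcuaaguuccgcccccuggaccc
Mir27b: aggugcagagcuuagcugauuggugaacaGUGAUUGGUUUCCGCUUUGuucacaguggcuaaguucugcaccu
In Mir27a the piece took bases 36 to 55 of the hairpin (chr8:84208707-84208726) and was seen as 25, 14 and 10 UMIs in Control and 21, 25 and 25 in CYP. In Mir27b it took bases 30 to 48 (chr13:63300741-63300759), with 17, 14 and 0 UMIs in Control and 23, 14 and 16 in CYP. Both ended on the base before the 3p strand began.

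Of the other 4 pieces, 3 ended on the base before the 5p strand of miR-24-1 begins (chr13:63301212), with starts 1 base apart. The longest of these was ctgtgattggacccgccctccg (chr13:63301191-63301212), with 13, 7 and 0 UMIs in Control and 27, 13 and 11 in CYP. The remaining one, cgatgacctctctaacaaggtgc (chr13:63300695-63300717), ended on the base before miR-27b-5p and had between 0 and 12 UMIs per library. Summed over all 6 pieces the counts were 110, 58 and 43 UMIs in Control and 148, 126 and 103 in CYP. The groups overlapped, since Control replicate 1 exceeded CYP replicate 3, and no test was run on counts this low.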

How the data were processed

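The authors deposited whole-number counts of UMIs and of reads per miRNA and per uncharacterized sequence, not normalized, and read counts per RNA class, per the file headers. The tools named per the submitters' processing notes, without roles, are STAR 2.6, Trim Galore, DESeq2 and FastQC 0.11.7, and the build is mm10. The counting tool is not stated there. The authors' deposited table of fold changes (a linear ratio of CYP to Control) and p-values was normalized by DESeq2, per the file headers.

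Here, UMI counts of all miRNAs, without the 188 piRNA rows, went into the robust quasi-likelihood test of edgeR 4.0.16 (R 4.3.3) with TMM factors, after filterByExpr at minimum count 10 and total 15. P-values were adjusted by Benjamini-Hochberg over all 885 tested miRNAs, with calls below 0.05. SE is the log2 fold change divided by the square root of F. DESeq2 1.42.0 was an alternative. Ratios used counts plus 0.5 and exact permutation tests. The edgeR script was tested on simulated data. Named miRNAs are the members, the other products of their loci, miRNAs sharing a seed, the 3 nearest patterns per member and the cell type markers. Positions of uncharacterized sequences were deposited counted from 0 and are given from 1. Members, lists and tests were chosen with earlier results of these data known.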

Additional observations from a re-analysis of the deposited data

How the results depend on the processing

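None of the 5 members was called in any of 16 alternatives (80 values, edgeR or DESeq2 adjusted p from 0.0922 to 0.9983), but their estimates lie near 0 and changed sign. With library totals they were 0.0004 for miR-23a-3p, 0.03 for miR-23b-3p, 0.10 for miR-27b-3p and 0.09 for miR-24-3p, and 0.01 and 0.11 for the summed miR-23 and miR-27 copies. With the filter of at least 10 CPM they were 0.06 for miR-27b-3p, 0.04 for miR-24-3p and 0.05 for summed miR-27, and with read counts 0.0030 for miR-27b-3p. miR-27a-3p turned to −0.01 with RLE factors, DESeq2, no filter or summed copies (then the value of the sum), and to −0.12 with upper-quartile factors. With 1 library left out, the values ran from −0.18 to −0.04 for miR-23a-3p, −0.13 to −0.02 for miR-23b-3p, −0.05 to 0.07 for miR-27a-3p, −0.08 to 0.06 for miR-27b-3p, −0.08 to 0.03 for miR-24-3p, −0.14 to −0.04 for summed miR-23 and −0.08 to 0.07 for summed miR-27. The log2 ratio of miR-27a-3p to miR-27b-3p then changed by −0.11 to 0.09. miR-3074-5p was −0.06 with upper-quartile factors, and miR-3074-1-3p was −0.0007, −0.11 and −0.10 with RLE factors, upper-quartile factors and read counts, and −0.35 to 0.25 with 1 library left out.

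Of the 6 other tested products of the loci, 1 was called in the main test, 3 with library totals, 2 without a filter, 3 with the replicate block, 0 with upper-quartile factors, without the robust option or with summed copies, and 0 to 2 with 1 library left out. The 109 called miRNAs became 58 to 139 with 1 library left out, 62 without Control replicate 3 and 58 without CYP replicate 1, and the split of higher to lower calls went from 59 and 50 to 78 and 29 with library totals and 37 and 95 with upper-quartile factors. The cause of these changes was not tested. Same-numbered libraries correlated in their deviations from the group means by 0.0896, −0.185 and 0.0841, and 2 of 6 libraries correlated best with their own number, so the numbers were not taken to pair the samples; the replicate block gave 142 calls. The ratio of miR-24-1-5p to miR-24-2-5p was not run; miR-24-1-5p was not analysed here. Strands with under 100 UMIs limit the ratios of miR-23a, miR-23b and miR-27b.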

Other observations

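Among the RefSeq mature miRNAs, 5 carry the seed of miR-24-3p, and 2 of the other carriers, miR-6413 and miR-6369, are in the miRNA table. miR-6413 had 0, 7 and 0 UMIs in Control and 0, 0 and 12 in CYP, and miR-6369 had 7, 5 and 11 UMIs in Control and 0, 17 and 10 in CYP. miR-24-3p, at 12729 ± 945 CPM in Control and 12441 ± 814 CPM in CYP (SD, n = 3 each), therefore held nearly all UMIs counted with that seed, and neither of the scarce carriers passed the filter on low counts.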
